A study of Danio rerio with 12 samples.

Results

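Complex I (NADH:ubiquinone oxidoreductase) is the first enzyme of the respiratory chain. Most of its subunits come from nuclear genes, but the core of its membrane arm is encoded by the mitochondrial genome. The genes described here are the 7 ND genes on the mitochondrial chromosome (MT) of the zebrafish assembly GRCz11, chosen by their positions, out of 32057 genes in the count table. All 7 passed the filter on low counts.

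RNA-seq counts were available for the whole brains of 12 female zebrafish aged 6 months that belonged to 1 family and were raised in 1 tank. The fish carried psen2S4Ter, a small frameshifting deletion made by CRISPR-Cas9 in the Tübingen strain, just after the start codon of psen2, which encodes presenilin 2, a catalytic subunit of γ-secretase. There were 4 wild type fish (+/+, WT), 4 heterozygotes (psen2S4Ter/+, Het) and 4 homozygotes (psen2S4Ter/psen2S4Ter, Hom), with 1 library per fish, and each fish is named below by its genotype and number. The questions were which differences went with the presence of the mutant allele (the mean of Het and Hom against WT) and whether the Het and Hom brains differed. A single mutant line and 1 family were used, so effects of the allele cannot be told apart from other variants inherited with it.

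The mitochondrial genome is compact, and its genes are transcribed from both strands as long precursors that are cut mostly at the tRNA genes lying between the protein genes. Neighbouring genes therefore begin as 1 RNA, and their steady levels differ through cutting, polyadenylation and decay. ND1 sits where the membrane arm meets the peripheral arm, close to the ubiquinone site. ND2, ND4 and ND5 are the large antiporter-like subunits that take part in proton pumping. ND3, ND4L and ND6 are small membrane subunits that lie between ND1 and the antiporter-like subunits. In vertebrates ND4L and ND4 share a single mature mRNA and overlap in sequence, and ND6 is the only protein gene read from the other strand. Brain tissue depends strongly on respiration, and loss of complex I function causes disease of the nervous system in humans.

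In the table ND1 (ENSDARG00000063895) spans MT 3803-4777 and ND2 (ENSDARG00000063899) spans 4993-6039. ND3 (ENSDARG00000063914) spans 10590-10940, ND4L (ENSDARG00000063916) spans 11009-11305 and ND4 (ENSDARG00000063917) spans 11299-12679. ND5 (ENSDARG00000063921) spans 12897-14717, and ND6 (ENSDARG00000063922) spans 14714-15232 on the minus strand, all others being on the plus strand. Each is a single exon. The lengths run from 297 bases for ND4L and 351 for ND3 through 519 for ND6, 975 for ND1, 1047 for ND2 and 1381 for ND4 to 1821 for ND5. ND4L shares 7 bases with ND4, and ND5 shares 4 with ND6. A fragment was counted only when it lay wholly within a gene's exon, so fragments that crossed the end of a gene, including the join between ND4L and ND4, added to neither gene.

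Between 11878943 and 17026801 fragments per fish were assigned to genes. The 2 mitochondrial rRNA genes took 17.9 to 26.4% of these in WT and 31.3 to 35.5% in the mutants, with no overlap, so levels are given as CPM, counts scaled to the library size outside these genes. Genes shorter than 500 bases took 3.32 to 9.58% of those counts in WT and 7.96 to 20.5% in the mutants. WT 88 was the highest WT brain in both shares, and Het 84 held the 20.5% and had the lowest scaling factor (0.842). Both are named where results rest on them. The ratio of the large to the small mitochondrial rRNA was 0.649 to 0.905 in WT, 0.732 in Het 84 and 1.25 to 1.55 in the other mutants. The psen2 gene itself had 17.6 to 23.0 CPM in WT and 16.5 to 21.7 in the mutants, with overlapping ranges, and since a small deletion within a transcript need not alter its count, this checks no label. All 10 of the 20 listed brain markers that could be matched had counts in every fish (summed 10472 to 15170 CPM in WT and 11319 to 18757 in the mutants). With the mutant allele 2 of the 10 were higher, the synaptic gene sypb (0.46, FDR 0.0146) and the oligodendrocyte lineage gene OLIG2 (0.54, FDR 0.0282), and 2 were lower, the neuronal gene ELAVL4 (−0.52, FDR 0.00194) and the myelin gene plp1b (−0.50, FDR 0.0478), in edgeR's quasi-likelihood test described below. The 2 of 4 blood markers that could be matched summed to 45.3 to 64.7 and 37.4 to 126 CPM, and 2 of 5 muscle markers to 5.27 to 45.9 and 1.09 to 60.5. These shares and marker levels moved beside the results to differing degrees and their part in them was not tested. In whole tissue, fewer cells of a type and less RNA per cell cannot be told apart.

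The 7 ND genes together made up 2.07 to 3.62% of counts outside the mitochondrial rRNA genes in WT brains. The range was 2.09 to 2.66% in Het brains and 2.31 to 2.55% in Hom brains. Their summed level was 28795 ± 6448 CPM in WT, 23040 ± 2504 in Het and 24283 ± 1005 in Hom (SD, n = 4 each). WT 88, at 20689 CPM, was the lowest of all 12 brains, while the other WT brains ran from 27685 to 36170 CPM and lay above every mutant (20861 to 26644 CPM). Within the mitochondrial protein-coding counts the ND share was 28.8 to 34.6% in WT and 25.0 to 28.2% in the mutants, so the groups did not overlap there.

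The presence of the mutant allele went with opposite differences among the ND genes. ND3 and ND6 were higher, ND4L and ND2 were lower, and ND1, ND4 and ND5 did not pass the test. Thus 4 of the 7 genes had a false discovery rate (FDR) below 0.05, 2 in each direction, where 34.1% of the 16021 tested genes passed (16.8% higher and 17.4% lower), so the number of ND genes called is given as a description. With the stricter criteria (a Bonferroni p below 0.01, or an FDR below 0.01 with a log2 fold change beyond 1 in size) only ND3 passed, where 2.53% of all genes did (1.53% higher). ND3 was also the only ND gene whose WT and mutant CPM did not overlap, where 15.7% of all genes did not (5.54% higher and 10.1% lower). Tests were edgeR's quasi-likelihood tests with Benjamini-Hochberg adjustment over all tested genes, and log2 fold changes are given with their SE. For each gene the estimate of spread was shared by the 3 genotypes, although every ND gene varied most between WT fish. The SEs, intervals and FDRs of the ND genes against WT may therefore be too small. The median log2 fold change was −0.24 over the ND genes, 0.33 over the 6 other mitochondrial protein genes and 0.020 over all tested genes.

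**Figure D1:**
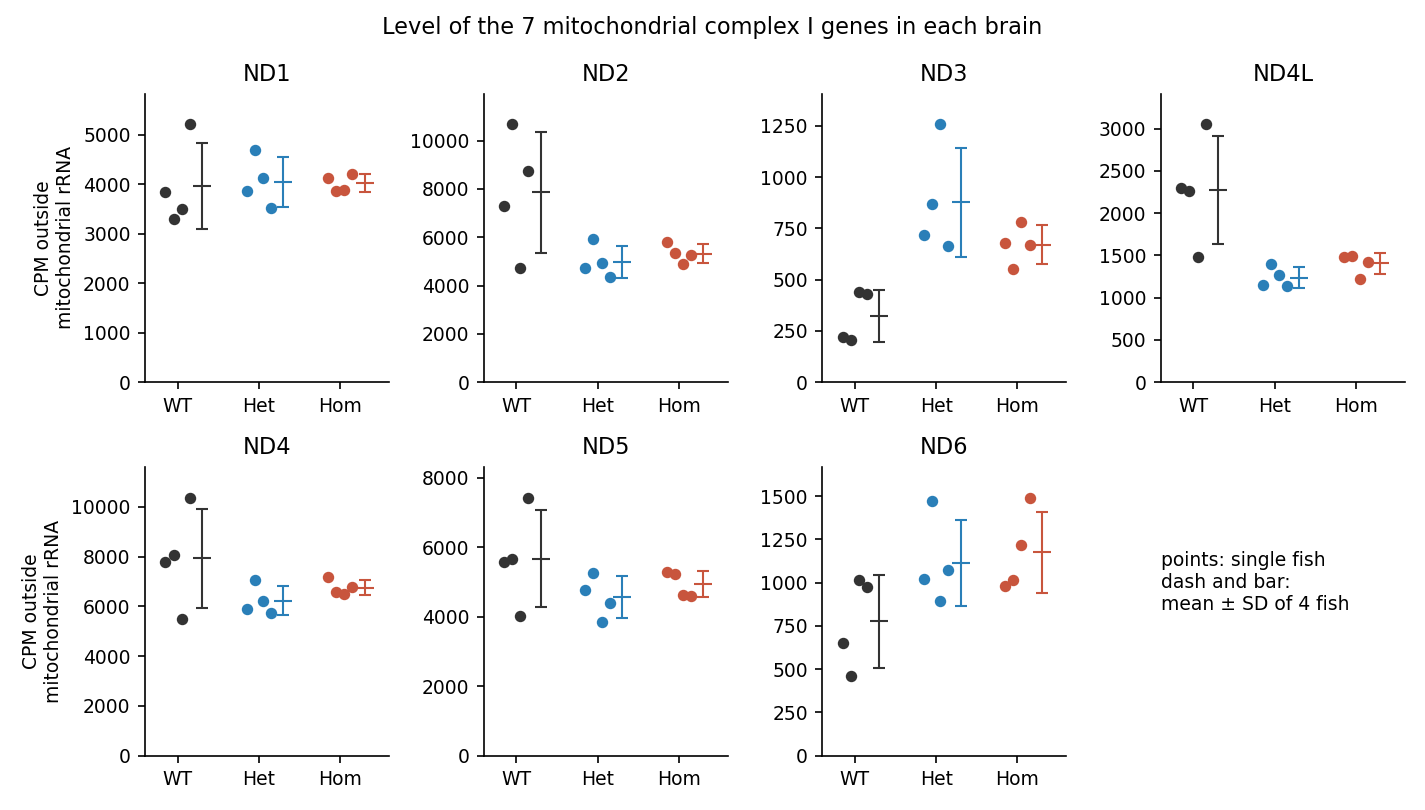
CPM outside the mitochondrial rRNA genes for each ND gene (panels, each with its own axis from 0) in single WT, Het and Hom brains, with the mean and SD of 4 fish beside them. ND3 is at 204 to 438 CPM in WT and 550 to 1256 in the mutants, whereas in the ND2, ND4L, ND4 and ND5 panels 1 WT point, WT 88, lies at or near the mutant points.

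ND3 was higher with the mutant allele. Its level was 220, 204, 438 and 430 CPM in WT 79, 86, 88 and 95. It was 719, 866, 1256 and 662 CPM in Het 80, 81, 84 and 89. It was 679, 550, 783 and 667 CPM in Hom 78, 82, 83 and 85. Every mutant brain lay above every WT brain, Het 84 was the highest, and WT 88 and WT 95 lay at about the same level, well above WT 79 and WT 86. The fitted log2 fold change was 1.29 ± 0.27 (95% interval 0.72 to 1.87, 2.45-fold, FDR 0.00356). It stayed below an FDR of 0.05 with any 1 of the 12 fish left out (1.13 to 1.47, FDR 0.00269 to 0.0167), but failed the stricter criteria without WT 79 (FDR 0.0167) or without WT 86 (FDR 0.0153). With a correction for gene length, fitted per fish over all genes, the estimate fell to 0.79 ± 0.19 (FDR 0.00661), which is also outside the stricter criteria.

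ND4L moved the other way. Its level was 2300, 2267, 1484 and 3050 CPM in WT 79, 86, 88 and 95. It was 1149, 1396, 1266 and 1133 CPM in the Het brains and 1486, 1496, 1227 and 1427 CPM in the Hom brains, in the same fish order as for ND3. WT 88 lay within the range of the Hom brains, and the other WT brains were above all mutants. The log2 fold change was −0.76 ± 0.16 (95% interval −1.10 to −0.42, 0.591-fold, FDR 0.00372), with an FDR below 0.05 whichever single fish was left out (−0.92 to −0.58). With the length correction it was −1.39 ± 0.22 (FDR 0.00101), past the stricter criteria. ND3 and ND4L are the 2 shortest of the 7 genes. The length correction lowered both estimates, ND3 from 1.29 to 0.79 and ND4L from −0.76 to −1.39. The part of length in these differences was not tested.

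ND2 was lower in the mutants on average. It had 7289, 10666, 4721 and 8722 CPM in WT 79, 86, 88 and 95. The mutants ran from 4347 CPM (Het 89) through a median of 5085 to 5911 CPM (Het 81). WT 88 thus lay inside the mutant range and the other WT brains above it. The log2 fold change was −0.59 ± 0.18 (95% interval −0.98 to −0.19, FDR 0.0256). The call was lost without WT 86 (−0.39, FDR 0.128) or without WT 95 (−0.53, FDR 0.0656), and without WT 88 the difference was −0.77 (FDR 0.00188).

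ND6, the gene of the other strand, had 649, 460, 1016 and 977 CPM in WT 79, 86, 88 and 95. The mutants ran from 896 CPM (Het 84) through a median of 1047 to 1490 CPM (Hom 85). WT 88 and WT 95 lay inside the mutant range and the other pair of WT brains below it. The log2 fold change was 0.59 ± 0.20 (95% interval 0.15 to 1.03, FDR 0.0398). The FDR rose above 0.05 when any 1 of 5 fish was left out: WT 79 (0.122), WT 86 (0.125), Het 81 (0.0710), Hom 85 (0.0697) or Hom 83 (0.0618). With the length correction the difference was 0.30 ± 0.20 (FDR 0.253), which also ended the call.

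The longest antiporter-like genes gave smaller differences. ND4 had 7796, 8069, 5509 and 10362 CPM in WT 79, 86, 88 and 95 against 5755 to 7181 CPM in the mutants. ND5 had 5585, 5664, 4025 and 7420 CPM in the same WT brains against 3844 to 5282 CPM. In both genes all WT brains except WT 88 exceeded every mutant. The log2 fold changes were −0.26 ± 0.15 for ND4 (95% interval −0.59 to 0.060, FDR 0.191) and −0.24 ± 0.14 for ND5 (−0.54 to 0.068, FDR 0.213). Without WT 88 both passed the 0.05 threshold (−0.41 with FDR 0.0266, and −0.38 with FDR 0.0286). In that setting 5886 of 15946 genes passed, rather than 5467 of 16021 with all fish. Without WT 95 they were −0.11 (FDR 0.599) for ND4 and −0.080 (FDR 0.677) for ND5.

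For ND1, WT brains held 3303 to 5209 CPM and the mutants 3510 to 4696 CPM, so that all mutants lay within the WT range. The log2 fold change was 0.057 ± 0.14 (95% interval −0.24 to 0.36, FDR 0.781), and its sign turned without WT 86 (−0.013) or without WT 88 (−0.0063), while without WT 95 it was 0.22 (FDR 0.213). The interval leaves room for a modest difference in either direction.

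The make-up of the ND counts was therefore unlike in the 2 groups of brains. As a share of the summed ND counts, ND3 made up 0.667 to 2.12% in WT and 2.28 to 5.58% in the mutants. ND4L made up 7.17 to 8.43% in WT and 5.19 to 6.21% in the mutants, and ND2 made up 22.8 to 34.8% and 20.8 to 22.7%. None of these 3 shares overlapped between WT and mutant brains, although WT 88 gave the WT value nearest the mutants for each. For ND2 the gap was narrow, between 22.82% in WT 88 and 22.69% in Hom 78. The shares of ND1, ND5 and ND6 did overlap. That of ND1 was 10.8 to 16.9% in WT and 16.1 to 18.3% in the mutants, and that of ND5 18.5 to 20.5% and 17.1 to 21.7%. For ND6 the highest WT share was 4.91% (WT 88) and the lowest mutant share 3.83% (Hom 78). The share of ND4 was 26.3 to 28.6% in WT and lay in a like range in the mutants (26.4 to 28.1%). As parts of 1 total, the shares of the 7 genes depend on each other, and in CPM ND2 and ND4L did overlap between WT and mutants. The number of shares without overlap is therefore a description.

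Levels of different genes were compared per kb of gene length. In WT the order of the means was ND4L (7661 ± 2153 CPM per kb), ND2 (7497 ± 2391), ND4 (5745 ± 1437), ND1 (4065 ± 882), ND5 (3116 ± 762), ND6 (1495 ± 515) and ND3 (920 ± 365). Only ND5 and ND6 had ranges over the 4 fish that did not overlap as neighbours in this order. Within single WT fish, though, ND2 was above ND4, ND4 above ND1, ND1 above ND5 and ND6 above ND3 in all 4, and ND4L was above ND2 in 3 of 4.

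In the mutants the order was more even. In Het it was ND2 (4755 ± 636 CPM per kb), ND4 (4507 ± 420), ND4L (4162 ± 410), ND1 (4150 ± 514), ND5 (2506 ± 329), ND3 (2496 ± 763) and ND6 (2148 ± 478). In Hom it was ND2 (5081 ± 361), ND4 (4888 ± 224), ND4L (4744 ± 422), ND1 (4130 ± 180), ND5 (2708 ± 207), ND6 (2267 ± 451) and ND3 (1908 ± 271). The only neighbours whose ranges did not overlap were ND1 and ND5 in both genotypes. The highest mean was 8.32 times the lowest in WT, 2.21 times in Het and 2.66 times in Hom. The order depended on how length was counted: with 150 bases taken off each gene, ND4L was the highest per kb in all 3 genotypes, and in Het and Hom ND5 was the lowest.

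**Figure D2:**
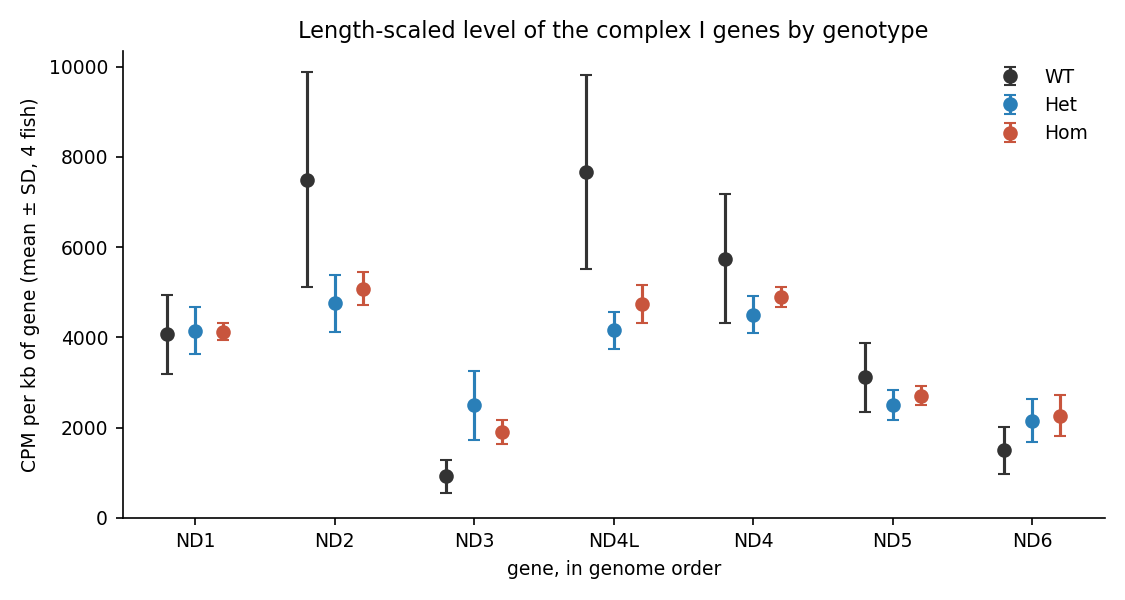
Mean CPM per kb of gene length (bars, SD over 4 fish) for the ND genes in genome order, by genotype, on a linear axis from 0. The WT points spread from 920 for ND3 to 7661 for ND4L, whereas the Het and Hom points lie between 1908 and 5081.

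The spread between fish was also largest in WT. The coefficient of variation of the ND genes was 21.7% (ND1) to 39.6% (ND3) in WT, 9.31% (ND4) to 30.6% (ND3) in Het and 4.37% (ND1) to 19.9% (ND6) in Hom. The median over tested nuclear genes was 16.4, 17.2 and 12.5%, in the same order. These spreads are a description and were not tested.

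The 2 ratios of neighbouring genes, which do not depend on the scaling between libraries, were examined. ND4L to ND4, which share an mRNA, had a ratio of counts per length of 1.37, 1.31, 1.25 and 1.37 in WT 79, 86, 88 and 95. It was 0.908, 0.921, 0.948 and 0.916 in Het 80, 81, 84 and 89 and 0.963, 1.06, 0.878 and 0.980 in Hom 78, 82, 83 and 85. All WT brains, WT 88 included, lay above all mutants. The mean log2 ratio was lower by 0.49 in the mutants (0.714-fold), with p = 0.00202 in a 2-sided exact permutation test, the smallest the design allows, and an adjusted p of 0.00808 over 4 such tests. Leaving out any 1 fish gave −0.51 to −0.47. Only fragments that lay inside a gene were counted, and the part of fragment length in this ratio was not tested.

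The ratio of ND6 to ND5, genes on opposite strands, was 0.408, 0.285, 0.886 and 0.462 in WT 79, 86, 88 and 95. It was 0.752, 0.981, 0.818 and 0.857 in the Het brains and 0.650, 0.682, 0.927 and 1.138 in the Hom brains, in the same order as above. WT 88 lay among the mutants and the other WT brains below all of them. The mean log2 ratio was higher by 0.84 in the mutants (1.79-fold, p = 0.0121 in a 2-sided exact permutation test, adjusted p = 0.0242). Leaving out WT 79, WT 86 or WT 95 each raised the adjusted p to 0.0727 (0.78, 0.60 and 0.84), and without WT 88 the difference was 1.15. ND6 has 519 bases and ND5 1821, and the part of fragment length in this ratio was not tested either. With the length correction the log2 fold changes of the single genes were 0.30 for ND6 and −0.32 for ND5. Between Hom and Het neither ratio differed beyond the spread (log2 differences of 0.069 and −0.036, exact p = 0.286 and 0.857, smallest possible 0.0286). Without Hom 83, however, the difference in ND4L to ND4 was 0.12 with an adjusted p of 0.0381 in the same exact test.

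**Figure D3:**
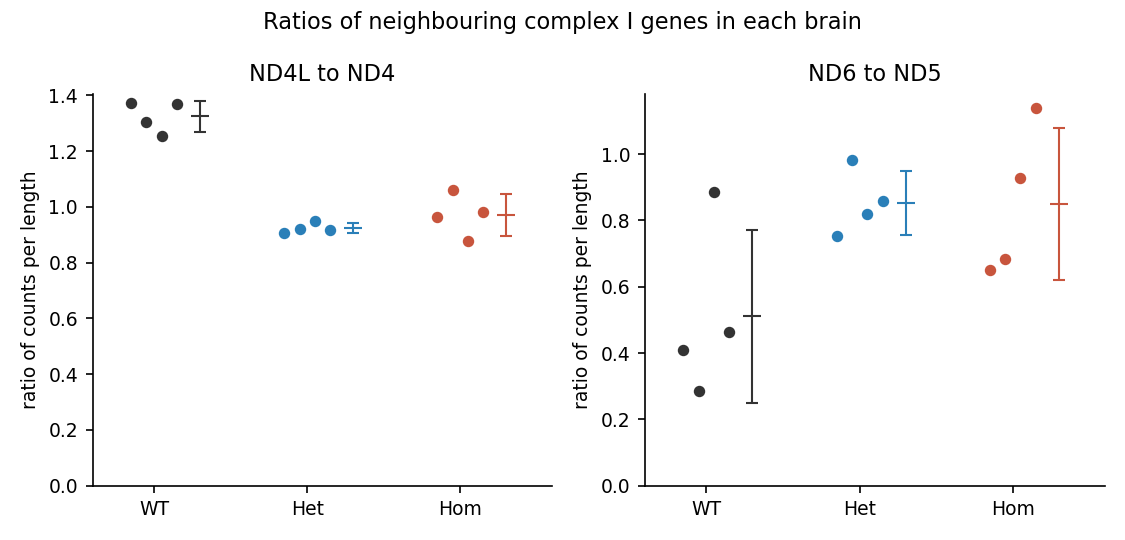
Ratio of counts per length of ND4L to ND4 (left) and of ND6 to ND5 (right) in each brain, with the mean and SD of 4 fish per genotype. On the left the WT points (1.25 to 1.37) lie above all mutant points (0.878 to 1.06), and on the right WT 88 (0.886) lies among the mutants while the other WT points are at 0.285 to 0.462.

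Het and Hom brains were not distinguished by any ND gene. No gene of the 16021 passed an FDR of 0.05 in edgeR's quasi-likelihood test (0% called, with 607 genes or 3.79% at an unadjusted p below 0.05, and 9 genes called by DESeq2), and the FDRs of the ND genes were 0.989 or above. All 7 overlapped between the genotypes, where 2.90% of all genes did not. The log2 fold changes of Hom against Het ran from −0.50 ± 0.29 for ND3 (95% interval −1.13 to 0.13) to 0.10 ± 0.19 for ND4L (−0.30 to 0.51). For ND3 the difference shrank to −0.18 without Het 84, the brain with the highest ND3 level. With the length correction it was −0.15 for ND3 and 0.45 for ND4L, neither of which passed (FDR 0.997). For ND4 the interval was −0.35 to 0.41, which leaves room for differences of that size in either direction with 4 fish per genotype. Its width rests on an estimate of spread shared by the 3 genotypes. The coefficient of variation of ND4 was 25.0% in WT, 9.31% in Het and 4.59% in Hom.

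Each genotype was also set against WT, and both comparisons used the same 4 WT brains. In Het against WT, 30.0% of all genes had an FDR below 0.05 and 3.17% met the stricter criteria, and 25.1% did not overlap between groups (9.28% higher and 15.8% lower). ND3 was higher (1.54 ± 0.30, FDR 0.00365) and met the stricter criteria, and ND4L was lower (−0.81 ± 0.19, FDR 0.00792). Both had no overlap with WT. ND2 (−0.59, FDR 0.0531) and ND6 (0.59, FDR 0.0698) did not pass. Without WT 88, though, 6 of the ND genes passed rather than 2, where 5425 of 15946 genes passed rather than 4804 of 16021. ND3 fell outside the stricter criteria without Het 81, WT 79 or WT 86. With the length correction ND3, at 0.87, fell outside them too, while ND4L, at −1.62 (FDR 0.00228), met them and ND2 passed the FDR threshold (−0.72, FDR 0.0225).

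In Hom against WT, 20.3% of all genes passed the FDR threshold, 1.11% met the stricter criteria and 24.5% did not overlap. ND3 was higher (1.04 ± 0.29, FDR 0.0265, no overlap) and ND4L lower (−0.71 ± 0.19, FDR 0.0212, overlapping through WT 88). ND2 (−0.58, FDR 0.0714) and ND6 (0.59, FDR 0.0833) did not pass. Both calls were lost without Hom 83, Hom 85, WT 79 or WT 86, and that of ND4L also without WT 95 (FDR 0.0503 to 0.0592 for ND4L and 0.0537 to 0.0803 for ND3). Without WT 88, 4 ND genes passed, where 4119 of 15946 genes passed rather than 3258 of 16021. With the length correction ND4L was at −1.17 and ND2 passed (−0.66, FDR 0.0423). Whether Het and Hom differed in ND3 is given by their own contrast above, which did not pass.

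The 6 other mitochondrial protein genes are given as values for the same contrast of mutant allele against WT. COX2, a subunit of cytochrome c oxidase, was higher (0.75 ± 0.20, FDR 0.0125), as was ATP8, a short subunit of the ATP synthase (2.30 ± 0.54, FDR 0.00661). ATP6, which overlaps ATP8 on the same mRNA in vertebrates, was lower (−0.54 ± 0.19, FDR 0.0439). COX1 (0.11, FDR 0.582), COX3 (0.40, FDR 0.0529) and CYTB (0.26, FDR 0.273) did not pass. Differences in both directions were thus seen outside complex I as well: ATP8 (165 bases) had 20.2 to 263 CPM in WT and 449 to 663 CPM in the mutants, and ATP6 had 6707 to 14204 CPM in WT and 6736 to 9490 CPM in the mutants, with WT 88 the lowest brain for ATP6 and the highest WT brain for ATP8. The 22 mitochondrial tRNA genes together held 2 to 6 counts per fish, too few to compare.

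**Figure D4:**
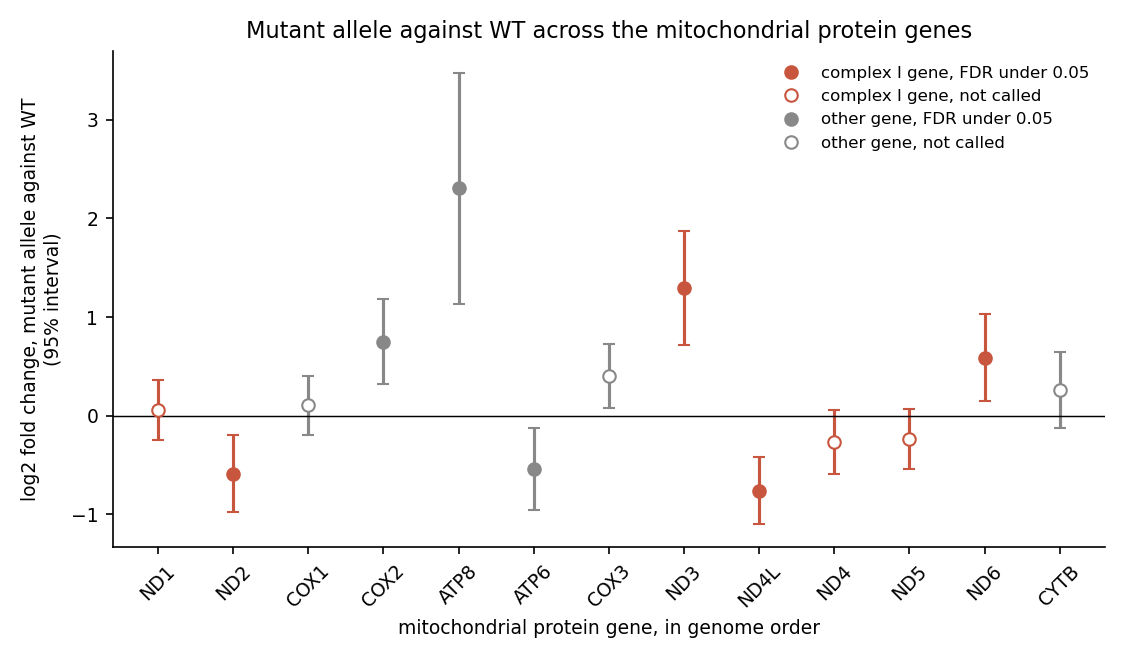
Log2 fold change of mutant allele against WT with its 95% interval for the 13 mitochondrial protein genes in genome order, complex I genes in red and filled where the FDR is below 0.05. Some neighbours differ in direction, with ND3 at 1.29 beside ND4L at −0.76 and ATP8 at 2.30 beside ATP6 at −0.54. Others do not, such as ND4L beside ND4 at −0.26 and COX2 at 0.75 beside ATP8.

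The nuclear genes of complex I were examined as the rest of the same enzyme. The table held 42 genes named as subunits, of which 40 were tested. With the mutant allele 25 of the 40 were higher and 0 lower at an FDR below 0.05 (16.8% and 17.4% of all genes), and 15 did not pass. The stricter criteria were met by 5, all higher, where 2.53% of all genes met them (1.53% higher). The median log2 fold change was 0.63 against 0.020 over all genes. At an unadjusted p below 0.05, 44.9% of all genes passed. With the length correction 20 were higher and 2 lower (median 0.50), and without WT 88 and Het 84 there were 29 higher and 2 lower. In these settings 5396 of 16021 and 6403 of 15886 genes passed in either direction. Their summed level was 1307 ± 177 CPM in WT, 2012 ± 274 in Het and 1685 ± 207 in Hom (SD, n = 4 each).

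The highest mean over all 12 fish was that of ndufa4b, at 90.7 ± 46.4 CPM in WT, 244 ± 11.0 in Het and 190 ± 24.5 in Hom (1.28 ± 0.23, FDR 0.00188). Despite its name, NDUFA4 is known in mammals as a component of complex IV. Without the 4 genes of that name 23 of 37 tested genes were higher and 0 lower at an FDR below 0.05 (16.8% and 17.4% of all genes). NDUFV1, which carries the NADH site, gave 0.30 ± 0.12 (FDR 0.0597), and NDUFS5, an accessory subunit whose mean in WT (104 CPM) was above that of ndufa4b, gave −0.27 ± 0.19 (FDR 0.295). Genes with larger differences included NDUFA1 (1.01, FDR 0.00102) and the core subunit NDUFS3 (0.94, FDR 0.00135), chosen after their values were seen.

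In Het against WT 28 nuclear subunit genes were higher and 0 lower (15.3% and 14.7% of all genes), with a median of 0.73. In Hom against WT 8 were higher and 0 lower (9.34% and 11.0%), with a median of 0.45. Without WT 88 and Het 84 together 26 were higher and 2 lower, where 4993 of 15886 genes passed in either direction. Between Hom and Het all 40 estimates were below 0 with a median of −0.36 (−0.0024 over all genes), but 0 passed the test. The median was −0.16 without Het 84 and −0.26 with the length correction. Of the 8 tested assembly factor genes, whose products help to build the complex, 4 were higher with the mutant allele against WT (NDUFAF1, NDUFAF4, NDUFAF6 and NDUFAF8, 0.52 to 0.95) and 0 lower, where 16.8% of all genes were higher and 17.4% lower. Set beside the ND genes, whose median was −0.24, the nuclear genes had estimates above 0 in 38 of 40 cases and the ND genes in 3 of 7. The other mitochondrial protein genes were above 0 in 5 of 6 cases, with a median of 0.33. Without WT 95 the median of the ND genes was −0.080.

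**Figure D5:**
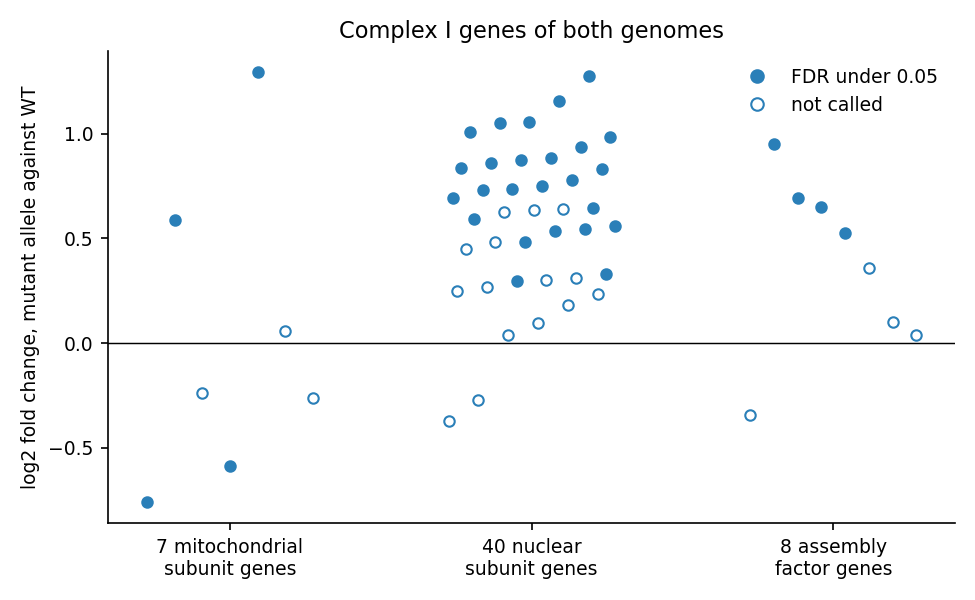
Log2 fold change of mutant allele against WT for the 7 mitochondrial and 40 tested nuclear subunit genes and the 8 assembly factor genes, filled where the FDR is below 0.05. Filled nuclear and assembly points all lie above 0, and the mitochondrial genes have 2 filled points on each side of 0.

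Genes for transcription and copying of the mitochondrial genome and for processing of its RNAs were counted from a list of known factors. Of 23 tested, 3 were higher with the mutant allele and 2 were lower (16.8% and 17.4% of all genes), with a median of 0.11. SLIRP, which in mammals stabilises mitochondrial mRNAs together with LRPPRC, was higher (0.64 ± 0.11, FDR 0.00151), at 20.5 to 27.6 CPM in WT and 30.2 to 44.6 CPM in the mutants. FASTKD2, an RNA-binding protein of the mitochondrion (0.62, FDR 0.0188), and SSBP1, the single-stranded DNA-binding protein of the mitochondrial genome (0.69, FDR 0.00914), were higher too. MTERF4 (−0.99, FDR 0.00370) and MTERF3 (−0.69, FDR 0.0126), of a family of factors that bind mitochondrial nucleic acids, were lower. The other tested genes did not pass. The list held 26 factors, of which 23 could be matched. SLIRP has 548 bases, and the genes of this list were not examined with the length correction or with a fish left out.

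The way fish deviated from their genotype means tied some ND genes together more than others. Over the 12 fish, which share library and depth across genes, Pearson correlations of log2 CPM deviations ran from −0.39 (ND2 with ND6) to 0.97 (ND4L with ND4), with a median of 0.61 over 21 pairs. ND2, ND4L, ND4 and ND5 correlated with each other at 0.78 to 0.97. ND3 correlated with these genes at −0.13 to 0.20 and with ND6 at 0.61, and ND1 with every other ND gene at 0.45 to 0.80. Among tested nuclear genes, those whose deviations were most like the mean of the ND genes were cd59b (r = 0.88), the dioxin receptor gene ahr2 (0.88), TXNL4B (0.87), the chemokine gene ccl34b.1 (0.86) and the annexin gene ANXA2 (0.86). These are the highest of all tested nuclear genes over 12 fish and are given as a description only.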

How the data were processed

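The authors trimmed paired-end reads from rRNA-depleted, strand-specific libraries with cutadapt 1.14, aligned them to GRCz11 with STAR 2.7.0d and counted them with featureCounts (Subread 1.5.2) against Ensembl gene models. They used uniquely aligned fragments with a mapping quality of at least 10 that lay wholly in exons on the proper strand. The deposited values are whole-number counts per gene, 1 column per fish, with the exonic length in bases of each gene (other unit), also given by the authors. This counting limits short genes to short fragments, and each level of ND3 and ND4L depends on it. The depleting probes were of mammalian sequence. Although the label of the extraction mentions larvae, every sample is labelled whole brain.

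Gene IDs were paired with symbols for 28988 of 32057 genes, and the 37 mitochondrial genes were named by exact match of position with RefSeq annotation. In the planned rule nuclear complex I genes were to come from the study's own table. As that list was ranked on these samples, all genes named as NDUF subunits were used instead. Members and lists were chosen with earlier results of these data known. The list of factors for mitochondrial transcription, copying and RNA processing was written after the count table was opened.

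Genes with a CPM above 1.5 in at least 4 fish were kept and the 2 mitochondrial rRNA genes left out, which gave 16021 genes. For this filter alone, CPM was taken over all counts, mitochondrial rRNA included. A model of 3 genotypes over 12 fish was fitted with edgeR 4.0.16 (R 4.3.3, TMM scaling, quasi-likelihood F test, Benjamini-Hochberg adjustment over all tested genes). Library sizes were counts outside the 2 rRNA genes. The fit was also run on simulated counts with less spread between fish and no group difference in the shares of rRNA or short genes. That run therefore does not check the test under the conditions of these data. Genes named by rule were the 7 ND genes, the other mitochondrial genes as values, the 3 nuclear complex I genes of highest mean CPM over all fish, and the 5 tested nuclear genes most like the ND genes. Brain markers, assembly factors and factors for mitochondrial transcription, copying and RNA processing were named where they passed the test. NDUFA1 and NDUFS3 were named after their values were seen. Alternatives were DESeq2 1.42.0, the likelihood-ratio test, other scalings and filters, a length correction (per-fish median regression on a spline of log length with 5 degrees of freedom), and leaving out each fish. Leaving out WT 88 and Het 84 together was added after seeing the data. The authors' correction for GC content was not used here. Sequences of the genes were not used here.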

Additional observations from a re-analysis of the deposited data

How the results depend on the processing

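No paired analysis was possible because each fish number occurs in only one genotype. The limits of the data are 4 fish per genotype, 1 WT brain (WT 88) that lay near the mutants in most ND genes, and a share of short genes and of rRNA that differed between the groups. Depth was not limiting, since every ND gene had at least 2123 counts in each fish. Apart from the counts of genes called, the levels of the 7 ND genes and the 2 ratios were searched within each genotype. In these 27 groups of 4 fish, 0 fish were flagged as standing far apart. With 4 fish only an extreme gap can be flagged, so this does not show that no fish stands apart. The ratio of the mitochondrial rRNAs, at 0.732 in Het 84 and 1.25 to 1.55 in the other mutants, was not searched.

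With DESeq2 the number of ND genes with an FDR below 0.05 was 4 in Het against WT and 4 in Hom against WT (2 each in the quasi-likelihood test), and with the likelihood-ratio test it was 4 in Het against WT. Of all 16021 genes, DESeq2 called 5304 and 3960 (4804 and 3258 in the quasi-likelihood test). The likelihood-ratio test called 4962 of them in Het against WT. Leaving out WT 88 and Het 84 together gave 5 and 4 ND genes, where 5575 and 4993 of 15886 genes passed. The number meeting the stricter criteria in Hom against WT was 1 under DESeq2, the likelihood-ratio test, that test with the length correction, and without WT 88 and Het 84 (0 in the quasi-likelihood test), and without those fish it was 2 in Het against WT (1 with all fish).

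Over all genes the number meeting the stricter criteria for the mutant allele (406) was 1132 with DESeq2, 966 with the likelihood-ratio test, 914 with that test and the length correction, and 675 without WT 88 and Het 84. For Het against WT (508) it was 981, 870 and 780 with DESeq2, the likelihood-ratio test and without those fish. For Hom against WT (178) it was 530, 454, 472 and 470 in the same order as for the mutant allele, and 4993 genes rather than 3258 had an FDR below 0.05 without those fish. Hom against Het gave 9 genes with DESeq2, 9 with the likelihood-ratio test and 10 with that test and the length correction (0 in the quasi-likelihood test). The nuclear complex I genes called lower (0 in each comparison) numbered 2, 1 and 2 with the length correction for mutant, Het and Hom against WT and 2, 2 and 2 without WT 88 and Het 84, and those called higher in Hom against WT numbered 26 rather than 8 without those fish.

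The sign of ND1 turned with the length correction, to −0.062, −0.046 and −0.078 for mutant, Het and Hom against WT (with either test), and to −0.043, −0.036 and −0.051 without WT 88 and Het 84. In Hom against Het, estimates near 0 turned to −0.0053 for ND2 and −0.012 for ND6 with no filter on low counts, and to −0.032 for ND6 without WT 88 and Het 84. The cause was not tested. In the 4 comparisons the ND3 and ND4L estimates kept their direction under every setting.

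Leaving out 1 fish at a time, the number of ND genes with an FDR below 0.05 was 2 to 6 for the mutant allele, 2 to 6 for Het and 0 to 4 for Hom against WT, and the number meeting the stricter criteria was 0 to 1, 0 to 1 and 0 to 0. Over all genes these were 3385 to 5886, 3102 to 5425 and 1507 to 4119 for the FDR and 161 to 680, 137 to 815 and 11 to 424 for the stricter criteria. Nuclear complex I genes called higher numbered 17 to 28, 23 to 31 and 3 to 17, and lower 0 to 2, 0 to 1 and 0 to 2. The log2 ratio of ND4L to ND4 was −0.51 to −0.47 for mutant minus WT and 0.025 to 0.12 for Hom minus Het, where the adjusted p was 0.0381 without Hom 83. That of ND6 to ND5 was 0.60 to 1.15 and −0.19 to 0.080. Signs turned for ND1 in mutant (−0.013 to 0.22) and Hom against WT (−0.059 to 0.17), and in Hom against Het for ND2 (−0.079 to 0.092), ND4 (−0.035 to 0.099), ND5 (−0.011 to 0.11) and ND6 (−0.13 to 0.16).

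The summed ND level was 15381 CPM in Het and 16278 CPM in Hom when all counts were the denominator (22590 in WT). Over nuclear counts it was 31725 CPM in WT, 25322 in Het and 26736 in Hom. With 150 bases taken off each length the sums per kb were 42584 in WT, 34031 in Het and 35351 in Hom, against 30499, 24724 and 25726 with full lengths.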
